A study of Mus musculus with 8 samples.

Results

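The genes described here encode proteases and a glycosidase that macrophages release into tumour tissue, together with their partners. They are 4 cysteine cathepsins (Ctsb, Ctsl, Ctss and Ctsk), the secreted cathepsin inhibitor cystatin C (Cst3), urokinase (Plau), its receptor (Plaur) and heparanase (Hpse). All 8 genes were taken from the array by gene symbol, using the probe sets annotated with a single symbol. They had 14 of the 45101 probe sets. Where a gene had several, it was represented by the one of highest mean on the 8 arrays, as for each of the 18193 genes on the array.

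RNA came from F4/80+ tumour-associated macrophages, sorted by flow cytometry from mammary tumours of mice 80 days old on the FVB background. The E2f3-deleted group (replicates A, E, F and H) had the genotype PyMT;Lys Cre;E2f3 f/f, and the control group (replicates B, C, D and G) the genotype PyMT;E2f3 f/f, so that the groups differ in Cre as well as in E2f3. Both groups carried the PyMT transgene, an oncogene that gives rise to the tumours, and the E2f3 allele flanked by recombination sites. The lysozyme gene drives Lys Cre in myeloid cells of several kinds, not in macrophages alone, and no group carried Cre without the floxed allele. Whether the arrays came from separate mice is not stated, so the p-values reflect only how these samples vary, and that variation may be technical.

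Cysteine cathepsins are made as inactive precursors, mature in the acid interior of lysosomes and can be released to cut matrix proteins outside the cell. Cystatin C binds and blocks them there. Urokinase, held at the cell surface by its receptor, turns plasminogen into plasmin, a protease of broad range, and heparanase cuts the heparan sulfate chains of basement membranes, which releases growth factors stored on them. In mammary tumours of PyMT mice, macrophages are a known source of cathepsins.

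The E2f3 transcript had log2 signals of 7.65, 7.54, 7.53 and 7.79 on the E2f3-deleted arrays A, E, F and H, against 7.66, 7.63, 7.83 and 7.58 on the control arrays B, C, D and G. Its dimmer probe set differed by −0.13 (SE 0.086). The deleted stretch of the gene is not stated, so these probe sets check nothing about the labels. Adgre1, which encodes F4/80, averaged 12.69 ± 0.068 in E2f3-deleted macrophages against 12.88 ± 0.078 in controls (log2 signal, SD, n = 4 each). Array medians lay between 5.65 and 5.69. E2f3-deleted replicate H stood apart, with a mean correlation of 0.982 with its own group, whereas the other E2f3-deleted arrays reached 0.9901 to 0.991 and the control arrays 0.994 to 0.995. The 8 genes are therefore described with and without replicate H where it decides a value, and related genes named below where leaving it out moved the difference by over 1.5 times.

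None of the 8 genes differed between the groups beyond the threshold. In the fit across 10916 genes (limma, Benjamini-Hochberg adjusted p under 0.05), 0 of the 7 genes above the filter on mean signal were called, where 0% of all genes were called. Plau lay under that filter and was tested among all probe sets only. At an unadjusted p under 0.05, 1 of the 7 was lower in E2f3-deleted macrophages, namely Plaur, and 0 were higher, beside 6.90% of all genes lower and 7.27% higher. The groups overlapped in all 7, while 4.22% of all genes had every E2f3-deleted value below every control value and 4.26% every one above. Of the 7 differences, 5 were below 0 and 2 above, with a median of −0.04, beside 58.7% below 0 and a median of −0.03 over all genes. Among the 14 probe sets, 12 had a difference below 0 (60.8% of all probe sets did), and 0 passed the adjusted threshold (0% of all probe sets did). At an unadjusted p under 0.05 there were 3 member probe sets, all lower, beside 5.49% of all probe sets lower. They were 1448732_at and 1444987_at, both of Ctsb, and the Plaur probe set. All Ctsb probe sets are among the 12 below 0, and probe sets of the same gene are not independent.

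**Figure D1:**
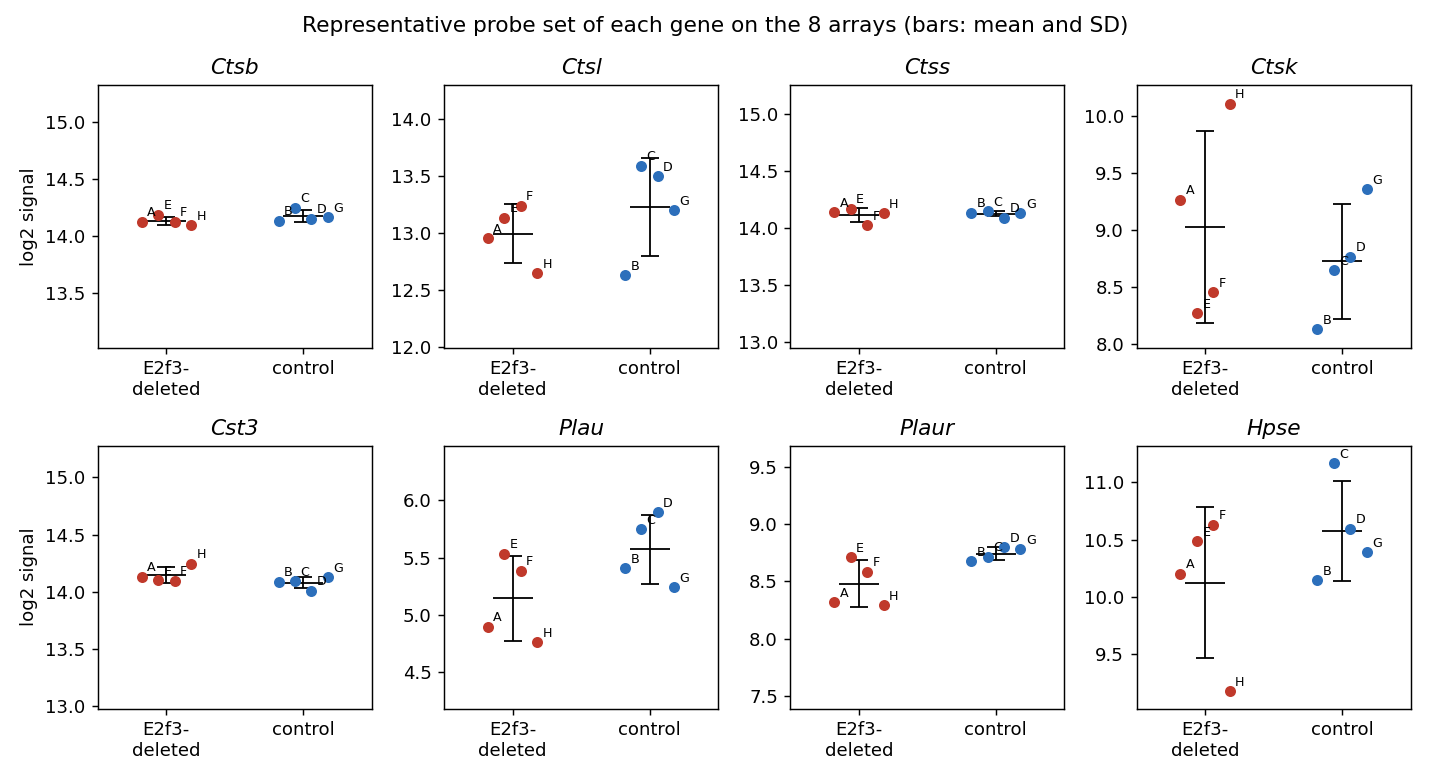
Log2 signal (vertical axis) of the brightest probe set of each gene on the 4 E2f3-deleted arrays (left, red) and the 4 control arrays (right, blue), with letters naming replicates and bars giving the mean and SD. In all 8 the groups overlap, with replicate H highest for Ctsk and lowest for Hpse and Plau.

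Ctsb encodes cathepsin B, which acts both as an endopeptidase and as a carboxypeptidase. Its brightest probe set, 1417490_at, had log2 signals of 14.12, 14.18, 14.12 and 14.09 on E2f3-deleted arrays A, E, F and H, against 14.13, 14.25, 14.15 and 14.16 on control arrays B, C, D and G. The difference was −0.04 (SE 0.050, limma adjusted p = 0.715), with a 95% confidence interval from −0.16 to 0.07. The values covered a narrow range, the groups overlapped, and the mean level was above that of 99.9% of all probe sets. Array maxima ran from 14.69 to 14.80, so this probe set lay near the top of the scale. Whether differences are compressed there was not tested.

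The other 4 Ctsb probe sets lay lower on the scale and had differences further from 0. Probe set 1448732_at had 13.12, 13.29, 13.23 and 13.09 on E2f3-deleted arrays A, E, F and H, against 13.30, 13.59, 13.34 and 13.30 on control arrays B, C, D and G, a difference of −0.20 (SE 0.088, adjusted p = 0.495 in limma over all probe sets). This was the only member probe set without overlap, where 3.45% of all probe sets had every E2f3-deleted value below every control value. The margin was small: the highest E2f3-deleted value was 13.2947 and the lowest control value 13.2954. Probe set 1417492_at averaged 12.36 ± 0.291 in E2f3-deleted macrophages against 12.64 ± 0.242 in controls, and 1417491_at averaged 11.64 ± 0.234 in E2f3-deleted macrophages against 11.89 ± 0.202 in controls (SD, n = 4 each). Their differences were −0.28 (SE 0.164) and −0.26 (SE 0.137), and replicate H was the lowest array for both. Without replicate H they were −0.14 and −0.15.

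The dimmest, 1444987_at, is annotated from another transcript sequence than the other 4. It had log2 signals of 8.33, 8.90, 8.10 and 8.57 on E2f3-deleted arrays A, E, F and H, against 8.87, 9.23, 9.15 and 8.74 on control arrays B, C, D and G. Replicates A, F and H lay below every control and replicate E did not. The difference was −0.53 (SE 0.177, 95% interval −0.93 to −0.12, limma adjusted p = 0.419 in the fit of all probe sets). Over the 8 arrays this probe set followed the others to unequal degrees, with Pearson correlations from 0.32 to 0.75, whereas the other 4 correlated with each other at 0.76 to 0.98. Leaving out single arrays kept it between −0.67 (without E2f3-deleted replicate E) and −0.40 (without E2f3-deleted replicate F).

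**Figure D2:**
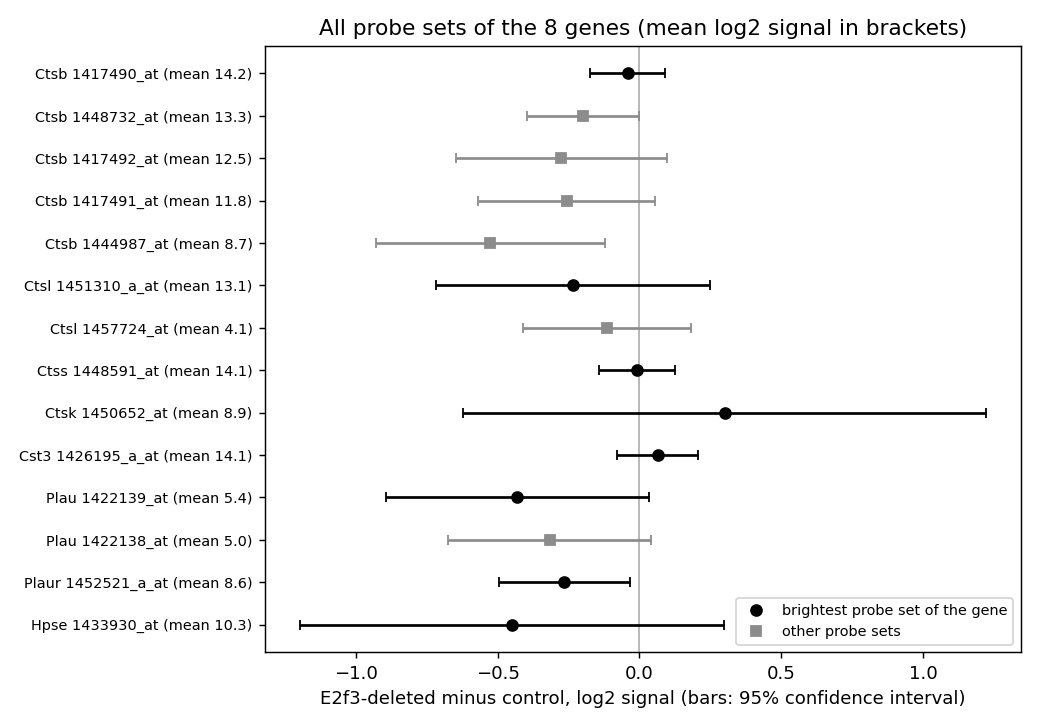
Difference in log2 signal, E2f3-deleted minus control (horizontal axis), for each of the 14 probe sets of the 8 genes, with 95% confidence intervals from limma over all probe sets; circles are the brightest probe set of a gene and squares the others. The 5 Ctsb probe sets run from −0.04 for the brightest to −0.53 for the dimmest, and the intervals of Ctsk and Hpse are the widest.

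Ctsl encodes cathepsin L, an endopeptidase of lysosomes. Its brighter probe set had 12.95, 13.13, 13.24 and 12.65 on E2f3-deleted arrays A, E, F and H, against 12.63, 13.59, 13.49 and 13.20 on control arrays B, C, D and G. Control B was the lowest array of all and the groups overlapped widely. The difference was −0.23 (SE 0.220, limma adjusted p = 0.638), and it ranged from −0.43 without control B to −0.11 without control C. Its profile over the 8 arrays was most like those of Inf2, a formin, Atp6v0d2, a subunit of the proton pump, and Fabp5, a fatty acid binding protein (r = 0.95 each). Here and below, such genes are the top 3 of 10916 over few arrays, so r is high by selection. Shared regulation was not tested. The other Ctsl probe set was near the bottom of the scale, averaging 4.09 in E2f3-deleted macrophages against 4.20 in controls.

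Ctss encodes cathepsin S, which works in antigen presentation and stays active at neutral pH. Log2 signals were 14.14, 14.17, 14.02 and 14.13 on E2f3-deleted arrays A, E, F and H, against 14.13, 14.15, 14.09 and 14.13 on control arrays B, C, D and G. The controls had an SD of 0.024 and the groups overlapped. The difference was −0.01 (SE 0.051, 95% interval −0.13 to 0.11, limma adjusted p = 0.948). Without E2f3-deleted replicate F the sign turned, to 0.02.

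Ctsk encodes cathepsin K, a collagen-cutting protease best known from osteoclasts. It lies next to Ctss on chromosome 3, with 0 protein-coding genes between them. Log2 signals were 9.27, 8.27, 8.46 and 10.11 on E2f3-deleted arrays A, E, F and H, against 8.13, 8.65, 8.77 and 9.36 on control arrays B, C, D and G. Replicate H was the highest of all arrays, while E and F lay below 3 of the 4 controls. The difference of 0.30 (SE 0.423, 95% interval −0.67 to 1.27, limma adjusted p = 0.759) rested on replicate H and was −0.06 without it.

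The Ctsk signal followed the fibroblast markers of the same arrays. Relative to the control mean, Ctsk was at 0.54, −0.45, −0.27 and 1.38 on E2f3-deleted arrays A, E, F and H, where the median of 8 fibroblast markers was at 1.055, −0.50, −0.05 and 1.94. On control arrays B, C, D and G, Ctsk was at −0.59, −0.08, 0.04 and 0.63, and the fibroblast median at −0.11, −0.77, 0.43 and 0.43. Over the 8 arrays Pearson's r was 0.87 and Spearman's rho 0.81, and r was 0.72 without the 2 arrays of most extreme Ctsk, as a description of arrays that share their normalization. All 8 fibroblast markers passed the filter on mean signal and 8 of 8 had differences above 0. Their mean log2 signal per array ran from 9.88 to 12.10 in E2f3-deleted macrophages and from 9.45 to 10.81 in controls, with Col1a2 at 12.40 in E2f3-deleted macrophages and 12.29 in controls. The genes with profiles most like that of Ctsk over the 8 arrays were Fbln1 (r = 0.94), Mmp2 (r = 0.93) and Fam135a (r = 0.93). Of the 8 osteoclast markers 6 were tested, 2 above 0 and 4 below, with a median difference of −0.10. Calcr lay at 2.72 in E2f3-deleted macrophages and 2.88 in controls, near the bottom of the scale. Acp5 lay at 11.25 in E2f3-deleted macrophages and 11.30 in controls. In the same order Dcstamp lay at 10.65 and 10.60, and Atp6v0d2 at 9.61 and 10.33. The part of fibroblast RNA in the Ctsk values was not tested. In sorted bulk RNA, fewer cells of a type and less RNA per cell cannot be told apart.

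Cst3 encodes cystatin C, the main inhibitor of these cathepsins outside cells. Log2 signals were 14.13, 14.10, 14.10 and 14.24 on E2f3-deleted arrays A, E, F and H, against 14.09, 14.09, 14.01 and 14.13 on control arrays B, C, D and G. Replicate H was highest and the groups overlapped. The difference was 0.06 (SE 0.056, 95% interval −0.06 to 0.19, limma adjusted p = 0.614), and 0.03 without replicate H. Its mean level, like those of Ctsb and Ctss, was above 99.9% of all probe sets and near the array maxima. All 8 of its values fell within 14.01 to 14.24.

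Plau encodes urokinase, and both of its probe sets were dim. The brighter had log2 signals of 4.89, 5.53, 5.38 and 4.76 on E2f3-deleted arrays A, E, F and H, against 5.41, 5.75, 5.90 and 5.24 on control arrays B, C, D and G. Replicates A and H were the lowest arrays, while E and F lay within the range of the controls. The difference was −0.43 (SE 0.204, 95% interval −0.89 to 0.03), with an adjusted p of 0.522 from limma over every probe set. The second probe set averaged 4.87 ± 0.240 in E2f3-deleted macrophages and 5.19 ± 0.272 in controls (SD, n = 4 each), and differed by −0.32 (SE 0.158). Both lay under the filter, at the 40th percentile of gene means (log2 5.998).

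Plaur encodes the urokinase receptor, a protein anchored in the outer membrane by a lipid. Log2 signals were 8.32, 8.71, 8.59 and 8.29 on E2f3-deleted arrays A, E, F and H, against 8.67, 8.72, 8.80 and 8.78 on control arrays B, C, D and G. Replicates A, F and H lay below every control, and replicate E lay above control B only. The SD was 0.205 in E2f3-deleted macrophages and 0.058 in controls. The difference was −0.26 (SE 0.101, 95% interval −0.50 to −0.03), or 0.832-fold. Its limma p of 0.0301 was the smallest of the 7 genes tested and ranked 1079 of 10916, with an adjusted p of 0.304. It was −0.20 without replicate H and −0.34 without E2f3-deleted replicate E. An exact permutation test over the 8 arrays gave a two-sided p of 0.0571, where 0.0286 is the smallest this design allows. Its nearest profiles over the 8 arrays were those of Emilin2, a matrix glycoprotein (r = 0.99), Mrpl18, a mitochondrial ribosomal protein (r = 0.98), and Gpr108 (r = 0.98).

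Hpse encodes heparanase, an endoglycosidase. Log2 signals were 10.20, 10.49, 10.63 and 9.17 on E2f3-deleted arrays A, E, F and H, against 10.14, 11.17, 10.59 and 10.39 on control arrays B, C, D and G. Replicate H was the lowest of all arrays and control C the highest, while the other E2f3-deleted arrays lay within the range of the controls. The difference of −0.45 (SE 0.342, 95% interval −1.24 to 0.34, limma adjusted p = 0.559) was −0.13 without replicate H. Relative to the control mean Hpse was at −0.37, −0.09, 0.06 and −1.40 on E2f3-deleted arrays A, E, F and H, against −0.43, 0.59, 0.02 and −0.18 on control arrays B, C, D and G, and over the 8 arrays it ran against the fibroblast median (r = −0.86, rho = −0.64). Without replicate H and control C that r was −0.30, so it rests on those arrays. Mast cell markers were also high on replicate H, with a median of 3.59 above the control mean. The part of either marker list in the Hpse values was not tested. The genes most like it over the 8 arrays were Cd163, a scavenger receptor of macrophages (r = 0.98), Adssl1 (r = 0.98) and Serpinb6a, an intracellular serpin (r = 0.98).

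Across the 8 arrays, some members had related profiles whatever the group. Hpse and Ctsl had a Pearson's r of 0.85 and a Spearman's rho of 0.93, and r was 0.88 without the 2 arrays of most extreme Hpse (replicate H and control C) and 0.82 once each group's mean was removed. Plaur and Plau had r of 0.87 and rho of 0.76, but r was 0.38 without E2f3-deleted replicates A and H, on which that relation rests. Cst3 ran against Plau, with r of −0.88 and rho of −0.88, and −0.81 without its 2 extreme arrays, although Plau was dim. The neighbours Ctss and Ctsk had r of 0.10 and rho of −0.29, and r was −0.60 without E2f3-deleted replicate F and control D. Ctss varied little over the arrays, so these values do not settle whether the profiles are related. The pairs named here are 4 of the 28, chosen after their values were seen, and they are descriptions over 8 arrays.

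**Figure D3:**
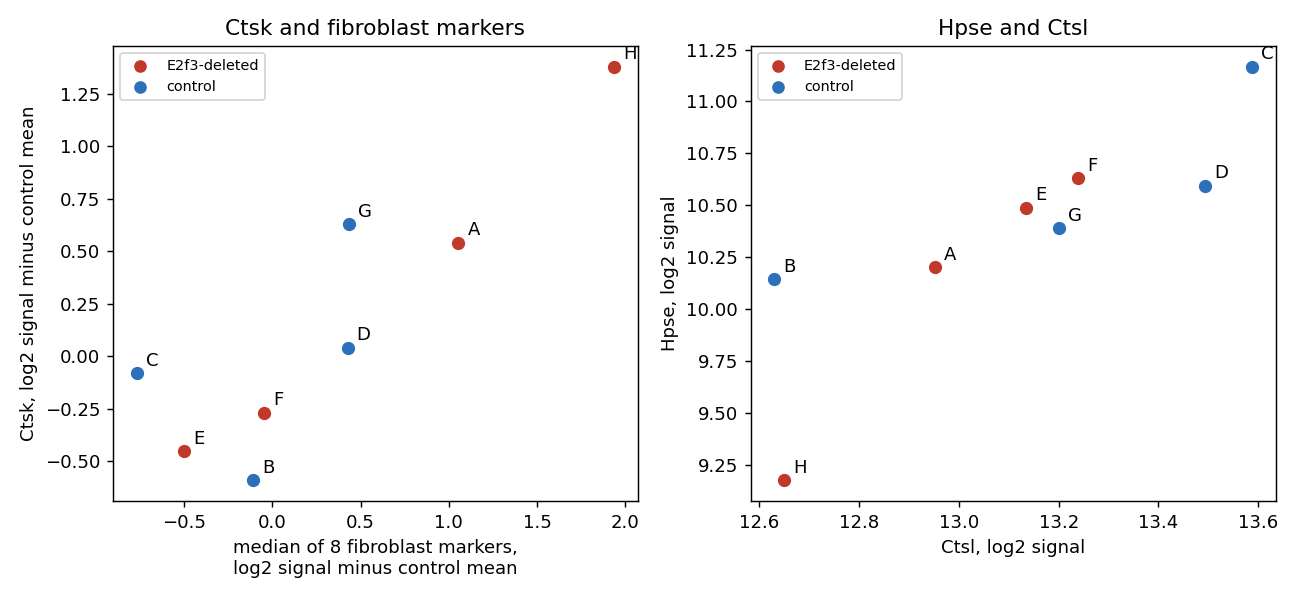
Left, Ctsk (vertical) against the median of 8 fibroblast markers (horizontal), both as log2 signal minus the control mean; right, Hpse against Ctsl as log2 signal. Points are arrays, E2f3-deleted in red and control in blue with replicate letters; replicate H is at the top right for Ctsk (1.38) and lowest for Hpse (9.17).

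The bases upstream of 4 of the genes are shown to give the letters behind a search for known factor motifs: the neighbours Ctss and Ctsk, their inhibitor Cst3, and Hpse. RefSeq windows (GRCm38.p6) were matched by symbol for 6 of the 8 genes. For these 4 the window ends at the outer start of the gene. For Ctsl and Plaur the table uses a transcript start 252 and 1546 bases inside the gene, so those windows are not shown or read here. Each line gives 250 bases, 5′ to 3′ on the strand of the gene, and capitals mark matches, on either strand, to CACGTG (an E-box, bound by TFEB and other factors), TGACTCA (AP-1), TTGGCGC or TTCCCGC (E2F) and AGAGGAA (a PU.1 core).
Ctss (chr3:95526536-95526785, plus strand): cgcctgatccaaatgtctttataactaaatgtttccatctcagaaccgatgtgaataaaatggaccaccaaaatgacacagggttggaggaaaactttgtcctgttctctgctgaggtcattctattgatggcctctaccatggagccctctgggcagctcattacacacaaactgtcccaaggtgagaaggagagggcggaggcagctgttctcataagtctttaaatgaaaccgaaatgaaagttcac
Ctsk (chr3:95498960-95499209, plus strand): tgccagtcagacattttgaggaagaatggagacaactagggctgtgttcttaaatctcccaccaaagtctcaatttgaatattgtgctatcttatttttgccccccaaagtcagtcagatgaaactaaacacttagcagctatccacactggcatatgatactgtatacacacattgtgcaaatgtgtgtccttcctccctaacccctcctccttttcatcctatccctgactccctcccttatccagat
Cst3 (chr2:148875513-148875762, minus strand): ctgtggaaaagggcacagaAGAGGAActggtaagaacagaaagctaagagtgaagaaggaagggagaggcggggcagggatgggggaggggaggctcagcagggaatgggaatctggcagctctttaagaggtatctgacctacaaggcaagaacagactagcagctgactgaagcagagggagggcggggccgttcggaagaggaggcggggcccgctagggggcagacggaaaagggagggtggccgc
Hpse (chr5:100719717-100719966, minus strand): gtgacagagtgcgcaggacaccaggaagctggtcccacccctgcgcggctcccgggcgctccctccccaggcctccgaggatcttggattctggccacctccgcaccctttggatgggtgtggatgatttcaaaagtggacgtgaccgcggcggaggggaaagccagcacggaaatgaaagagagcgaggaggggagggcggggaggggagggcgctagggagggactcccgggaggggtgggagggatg
The Cst3 window held AGAGGAA, starting 231 bases before the start, and the other windows shown held none of the 5 motifs. Over all 32851 RefSeq windows of this length, 8.55% held AGAGGAA, 6.02% CACGTG, 4.46% TGACTCA, 1.97% TTGGCGC and 3.82% TTCCCGC on either strand. A match describes letters only, and the lack of one says nothing about a factor.

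Related genes were described by list, with no test of a list. The remaining cathepsins and legumain (Lgmn, an asparagine-specific lysosomal protease that processes cathepsins) had 10 tested genes of 11, of which 8 were below 0 and 2 above, with a median of −0.08. At an unadjusted p under 0.05, 4 of the 10 were lower, beside 6.90% of all genes, and 0 passed the adjusted threshold in either direction. Lgmn averaged 11.66 ± 0.104 in E2f3-deleted macrophages against 11.95 ± 0.127 in controls (log2 signal, SD, n = 4 each), and the difference was −0.29 (SE 0.082, limma adjusted p = 0.234). The aspartic protease Ctsd differed by −0.15, the carboxypeptidase Ctsz by −0.17 and the aminopeptidase Ctsh by −0.11, while Ctsw, a protease of lymphocytes, had 0.23. In 3 of the 10, Lgmn, Ctsa and Ctsd, the groups did not overlap, all lower, beside 4.22% of all genes.

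Of a list of cystatins, serpins and other protease inhibitors, 5 of 16 were tested, 3 of them below 0. The median of −0.08 was −0.01 without replicate H. The list is not limited to inhibitors of the cathepsins described above. The cytosolic cystatin Cstb had −0.08 (−0.01 without H), the leukocyte cystatin Cst7 −0.32 (−0.56 without H), Serpinb6a −0.23 (−0.07 without H) and Serpinb9 0.25. None passed the adjusted threshold.

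Around urokinase, a list of plasminogen activation, its inhibitors and related genes had 9 of 20 tested, 6 above 0 and 3 below, and 0 passed. It also holds the coagulation genes Thbd, F3, Tfpi and Tfpi2, so its counts and median are not those of plasminogen activation alone. The median of 0.07 ran from 0.06 to 0.33 (without control D) as each array was left out. Tissue plasminogen activator (Plat) averaged 8.79 ± 0.776 in E2f3-deleted macrophages against 7.97 ± 0.575 in controls (log2 signal, SD, n = 4 each), and the difference was 0.82 (SE 0.418, limma adjusted p = 0.409), or 0.54 without replicate H. Tfpi, the inhibitor of the tissue factor pathway, had −0.13 (−0.05 without H). Thrombomodulin (Thbd), a surface protein of endothelium, had 8.39, 7.65, 8.001 and 8.30 on E2f3-deleted arrays A, E, F and H, against 6.54, 7.55, 6.97 and 7.08 on control arrays B, C, D and G, with no overlap. Its difference was 1.051 (SE 0.232, limma adjusted p = 0.186). Plasminogen (Plg) and the inhibitor Serpinb2 lay under the filter. In the 15 tested genes of receptors and partners, 8 were below 0 and 7 above. Lrp1, which takes up complexes of urokinase and its inhibitor, had −0.30 (SE 0.088, adjusted p = 0.237), and Egfr, with no overlap, 0.55. Over all genes, 4.26% were higher without overlap, as Egfr and Thbd were. The integrin chains Itgb2 and Itgam had −0.29 and −0.34, and −0.17 each without replicate H. The plasminogen-binding Anxa2 had −0.11 (−0.04 without H) and its partner S100a10 −0.03, which turned to 0.10 without H.

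On the substrate side of heparanase, 8 of 12 tested heparan sulfate proteoglycans were above 0, and 5 were higher at an unadjusted p under 0.05, where 7.27% of all genes were. The median of 0.21 ran from 0.10 (without E2f3-deleted replicate F) to 0.32 (without control D). The basement membrane collagen Col18a1 had 9.72, 8.95, 10.03 and 9.56 on E2f3-deleted arrays A, E, F and H, against 7.95, 7.96, 8.74 and 8.20 on control arrays B, C, D and G. Its difference was 1.35 (SE 0.255, limma adjusted p = 0.158). The groups did not overlap for Col18a1, Tgfbr3 (1.34) and Sdc2 (1.18, or 0.67 without replicate H), all higher, beside 4.26% of all genes. The syndecans Sdc1, Sdc3 and Sdc4 had 0.37 (0.59 without H), −0.24 and 0.06, perlecan (Hspg2) 0.03 and Gpc1 −0.29. Tgfbr3 and Sdc2 were highest on replicate H, at 10.37 and 9.99. On the same arrays endothelial markers had a median difference of 1.30, with 6 of 6 tested genes above 0 of 8 in the list. The filter takes the mean of all 8 arrays, and Emcn (5.63), Erg (5.76) and Tie1 (5.54) lay under it in controls. That count above 0 was therefore partly fixed by the filter. Relative to the control mean, the median of all 8 endothelial markers was 1.90, 1.02, 1.87 and 0.14 on E2f3-deleted arrays A, E, F and H. It ran from −0.39 to 0.44 on the control arrays. Their mean log2 signal per array ran from 6.48 to 8.28 in E2f3-deleted macrophages and from 5.97 to 6.81 in controls, and the defining markers Cdh5 (6.22 in E2f3-deleted macrophages, 5.21 in controls) and Pecam1 (5.85 in E2f3-deleted macrophages, 4.87 in controls) lay under the filter. Their part in these values was not tested.

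Enzymes that break down heparan sulfate in lysosomes after heparanase has cut it had 7 tested genes of 9, 6 below 0 and 1 above, with a median of −0.15. Naglu, an N-acetylglucosaminidase, differed by −0.42 (SE 0.071, limma adjusted p = 0.158), the glucuronidase Gusb by −0.20 and the sulfamidase Sgsh by −0.15 (−0.07 without H), while the sulfatase Ids had 0.06. In 3 of the 7, Naglu, Gusb and Idua, the groups did not overlap, beside 4.22% of all genes, and the same 3 were lower at an unadjusted p under 0.05, beside 6.90% of all genes. Leaving out each array in turn kept this list's median between −0.21 and −0.13. Genes of heparan sulfate synthesis and editing had 14 tested of 18, 7 above 0 and 7 below, among them Ext1 at −0.09, Sulf1 at 0.41 (0.76 without H), Sulf2 at −0.06 and B3gat3 at 0.20. The 2 lower at an unadjusted p under 0.05, both without overlap, were Xylt2 (−0.27) and B4galt7 (−0.19), which build the linker of the chains to the core protein. Over all genes these shares were 6.90% and 4.22%. Macrophage markers had differences below 0 in 8 of 8 genes, with a median of −0.16, and the Gapdh signal at the 3′ end minus that at the 5′ end, a measure of RNA integrity, was 1.67 ± 0.167 in E2f3-deleted macrophages and 1.45 ± 0.0637 in controls (SD, n = 4 each). The part of either in the differences of members or lists was not tested.

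Matrix metalloproteinases and their inhibitors, the other large group of secreted proteases, had 14 tested genes of 21, with 7 above 0 and 7 below. Mmp9 had 0.34 (0.02 without replicate H), Mmp14 −0.05 (−0.22 without H) and Timp1 0.28 (0.13 without H). Timp2 had −0.18 and Timp3 1.36 (SE 0.452, adjusted p = 0.272). The list's median of 0.13 was −0.07 without replicate H. A list of matrix proteins that such proteases cut had 14 tested of 16, 12 of them above 0 and 9 higher at an unadjusted p under 0.05, beside 7.27% of all genes. It also holds Vim, an intracellular filament protein, which was below 0 (−0.09, or −0.04 without H). The groups did not overlap for Lamb2, Col4a1, Col4a2 and Lama5, all higher, beside 4.26% of all genes. The list had a median of 0.74 that ranged from 0.49 to 1.01 as each array was left out. Among them were the basement membrane collagens Col4a2 (1.42) and Col4a1 (1.34), Nid1 (1.09), Lamb2 (0.65), Lama5 (0.45), Lamc1 (0.65, or 0.39 without H) and fibronectin, Fn1 (−0.17, or −0.05 without H). On these arrays the markers of several other cell types had medians above 0. These were fibroblast 0.76 (8 of 8 tested genes above 0), endothelial 1.30 (6 of 6), epithelium 0.49 (8 of 8), mast cell 1.31 (7 of 7) and neutrophil 0.24 (3 of 3). The filter takes the mean of all 8 arrays, so some markers passed it only through their E2f3-deleted values. Among these, Emcn averaged 7.02 in E2f3-deleted macrophages and 5.63 in controls, and Ms4a2 7.25 and 5.56. The endothelial and mast cell counts above 0 were therefore partly fixed by the filter. Under it, Pecam1, Cdh5 and Fcer1a had 0.98, 1.01 and 0.09. These medians cover tested genes only. Of the neutrophil markers under the filter, Ngp (−0.22), Elane (−0.13) and Mpo (−0.07) were below 0 and Camp (0.10) above. The T and NK cell list had −0.13, from Cd3e and Cd2 alone. Of its markers under the filter, Nkg7 (0.13) and Gzmb (0.17) were above 0, and Cd3g (−0.12) and Gzma (−0.06) below. The osteoclast list had −0.10. Relative to the control mean, the median of all 8 mast cell markers was 0.56, 1.18, −0.35 and 3.59 on E2f3-deleted arrays A, E, F and H. Mean log2 signals per array ran from 8.84 to 9.88 in E2f3-deleted macrophages and from 8.61 to 9.69 in controls for epithelium, and from 6.08 to 9.29 in E2f3-deleted macrophages and from 5.81 to 6.44 in controls for mast cells. Their part in the values of the lists was not tested. The regulators listed for these genes had 13 of 19 below 0, beside 58.7% of all genes. The receptor RANK (Tnfrsf11a), whose signalling induces Ctsk in osteoclasts, had −0.30 (SE 0.056, limma adjusted p = 0.158), Mitf −0.14, PU.1 (Spi1) −0.28 (−0.11 without H), Tfeb −0.10 (−0.06 without H), Csf1r −0.01 (−0.0019 without H) and the AP-1 member Fosl2 0.32. The groups did not overlap for Tnfrsf11a and Stat6 (−0.20), both lower, beside 4.22% of all genes. Nor did they for Fosl2 and Ets1 (0.65), both higher, beside 4.26% of all genes.

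**Figure D4:**
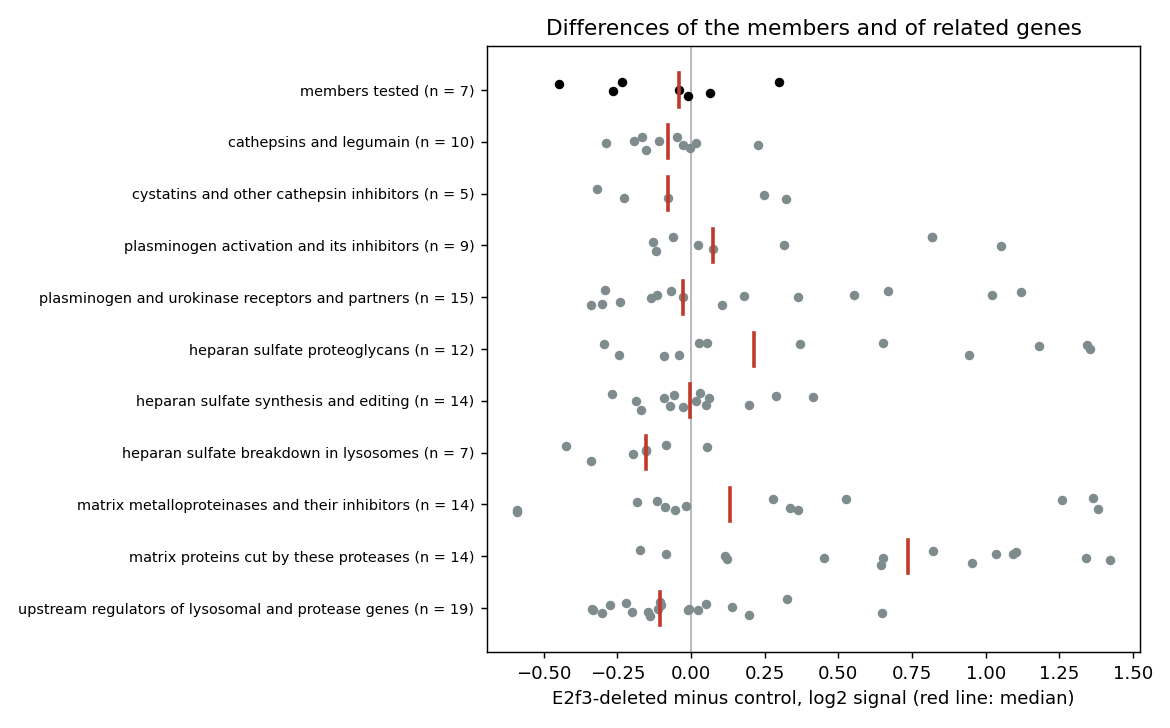
Difference in log2 signal, E2f3-deleted minus control (horizontal axis), of each tested gene, for the 7 members tested (top, black) and 10 lists of related genes (grey), with red lines at the medians. The members run from −0.45 to 0.30 around a median of −0.04, and the list of matrix proteins, which also holds Vim, has the highest median, 0.74.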

How the data were processed

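Total RNA was extracted with Trizol and labelled as biotinylated cRNA for Affymetrix arrays, per the labels' protocols. The authors deposited one log2 signal for each of 45101 probe sets and each of the 8 arrays. RMA made them, per the submitters' processing notes, and the RMA version is not given in the sources used here. This method makes the distributions of the arrays alike, so a shift shared by most genes is not seen. The number of arrays limits precision.

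Probe sets were named from the platform annotation: 64 were controls, 34945 had 1 gene symbol, 932 several and 9160 none here. All 14 member probe sets matched the RefSeq gene table by Entrez identifier. Each gene was represented by its probe set of highest mean, and genes under the 40th percentile of mean signal were left out, which left 10916. Differences, E2f3-deleted minus control, were tested two-sided on all 8 arrays with no covariate, by lmFit and eBayes of limma 3.58.1 (R 4.3.3), at a Benjamini-Hochberg adjusted p under 0.05. All 45037 probe sets other than controls were fitted likewise with no filter. Genes within lists were named by rule: genes marked in the lists and the smallest p in each direction. Genes without overlap, and the values without replicate H, were added after the data were seen. For each member the 3 genes of highest Pearson correlation were found. They are given for Ctsl, Ctsk, Plaur and Hpse, a choice made after they were seen, and not for Ctsb, Ctss, Cst3 and Plau. As the highest of 10916 genes over 8 arrays, their correlations are high by selection, and what unrelated genes would reach was not tested. The members and lists were chosen with earlier results of these data known.

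On simulated arrays with 200 of 10916 genes changed, this test recovered 67.2% of log2 changes of 0.5, 91.0% of 1 and 98.5% of 2. It also called 11 unchanged genes. The noise was normal and independent for each gene, with that gene's own SD, and no simulated array stood apart as replicate H did. The shares are taken over many genes and do not hold for variable members such as Ctsk (SE 0.423) and Hpse (SE 0.342). The alternatives averaged a gene's probe sets, dropped or raised the filter, normalized again by quantiles or by centring medians, used array weights or a robust prior with a trend, relaxed the adjusted p to 0.1, or left out each array. A last one grouped arrays by the letter of the scan file, which differs from that of the title and exchanges control B and E2f3-deleted F.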

Additional observations from a re-analysis of the deposited data

Results flagged for a closer look

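The Ctsb probe set 1448732_at had 1 control array far from the others. Control replicate C had a log2 signal of 13.59, and the nearest control array 13.34, a gap of 0.862 of the group's range and past Dixon's 95% limit for 4 samples. Of 28 groups of 4 values examined (14 probe sets in each of the 2 conditions), this was the only one past the limit, and chance alone passes about 1 in 20. Without control C the probe set's difference was −0.13.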

How the results depend on the processing

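The count of members past the threshold (limma, adjusted p under 0.05) was 0 in the reported fit, with 1 member at an unadjusted p under 0.05, and 0 under every alternative run. That includes the fits without E2f3-deleted replicate E or H, which called 56 and 14 genes in all. The count of members whose groups do not overlap was 0 in the reported fit and 1 with the mean of the probe sets (Ctsb) or with arrays grouped by scan file letter (Ctsl). It ran from 0 to 2 as arrays were left out. Plaur was counted without control B, Cst3 without control G, and Ctsb and Plaur without E2f3-deleted replicate E. The share of all genes without overlap was not taken under any of these alternatives. With an array left out, groups separate by chance more often, so the shares from the full set of arrays do not apply. No conclusion is drawn from the members named. Of 112 alternative values for the 7 genes tested, 109 kept their direction and 3 reversed. Dropping or raising the filter and changing the prior leave a difference as it is, as does averaging for genes with 1 probe set. Those values could not reverse, so the 109 overstates how firm the directions are. The 182 values for the 14 probe sets, which include those genes' own, held the same 3 reversals. Those with the robust prior could not reverse either. Ctss was 0.022 without E2f3-deleted replicate F and 0.046 when grouped by scan file letter, and Ctsk was −0.060 without E2f3-deleted replicate H (leave-one-out ranges −0.027 to 0.022 and −0.060 to 0.55); the cause was not tested. Grouping by scan file letter gave −0.54 for Ctsl, −0.69 for Hpse and −0.22 for Plaur, and −0.14 for Ctsb probe set 1444987_at. That grouping also turned the median of 3 lists, to −0.07 for plasminogen activation, −0.0021 for heparan sulfate proteoglycans and −0.19 for metalloproteinases and their inhibitors. With the mean of the probe sets Ctsb was −0.26. The alternative adjusted p-values of single members ran from 0.147 to 0.991. No paired analysis was possible because the groups share no replicate letters.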
